A study of Mus musculus with 36 samples.

Results

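The genes described here encode the proteins of the synaptonemal complex and of the chromosome axis it is built on. The set was named by its members, Sycp1, Sycp2, Sycp3, Syce1, Syce2, Syce3, Tex11, Tex12, Hormad1 and Hormad2. Each gene was read through probe sets (groups of array probes for one transcript) whose annotation gives exactly 1 symbol, taking, for each gene, the one whose mean over the arrays was highest. This measured 9 of the 10 members, out of 19938 genes in all. Syce3 had no probe set with exactly 1 symbol and has no value here. The series compared sorted cells of fetal mouse gonads on 36 microarrays, in 12 groups of 3 arrays. XX and XY germ cells were taken at 3 stages, TS13 (before sexual differentiation, by the labels), TS24 (during) and TS34 (after). All germ cells were sorted by an Oct4 reporter in progeny of C57BL/6NJ mice on a mixed background. Supporting cells, the somatic lineage of Sertoli and pregranulosa cells, came from XX and XY gonads at the same 3 stages. All XX supporting cells and the XY supporting cells at TS13 carried Tg(Sry-EGFP)92Ei in progeny of CD-1 mice, whereas the XY supporting cells at TS24 and TS34 came from Tg(Sox9-cre/ERT2)1Msan/J in progeny of C57BL/6. Gonads were pooled by sex before sorting, and the labels do not say whether the replicates of a group were separate pools, so the p-values reflect the spread among these arrays, and part of that spread may be technical. Cell type and mouse line cannot be told apart.

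In meiosis each chromosome folds into loops along a protein axis, and the synaptonemal complex then zips the axes of homologous chromosomes together so that crossovers can form. Sycp2 and Sycp3 build the axis, or lateral element, and Hormad1 and Hormad2 sit on axes that are not yet synapsed. Sycp1 forms the transverse filaments that bridge the axes, while Syce1, Syce2, Syce3 and Tex12 make up the central element that joins the filaments in the middle. Tex11, an X-linked gene, encodes a protein of recombination sites that promotes crossing over and synapsis. In the mouse, female germ cells enter meiosis in the fetal ovary, whereas male germ cells arrest before meiosis in the fetal testis and enter it only after birth.

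1 array did not carry the profile its label names. The library labelled germ XX TS24 replicate 3 had a mean of 5.84 over 10 germ cell markers (log2 expression), against 9.63 to 10.43 on the other 17 germ cell arrays. Its mean over 12 supporting cell markers was 9.27, against 6.33 to 7.10 on those 17 arrays. The rule of the gene set leaves this library out, so the XX TS24 group holds 2 arrays, and all tests below use 35 arrays unless the 36th is named. The 17 germ cell arrays expressed the germ cell gene Ddx4 at group means of 10.76 to 11.97, against 5.03 to 5.82 in the supporting groups. Differences are log2 values from limma with their standard error (SE), fitted on 17571 genes, and a gene was called at an adjusted p under 0.05 over all of them. A probe set's level depends on its probes as well as on the transcript, so levels are compared between groups and never between genes.

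In XX germ cells 8 of the 9 measured members rose by TS34, by 1.57 to 4.37 over TS13 (2.97-fold to 20.7-fold on this scale). In XY germ cells 5 rose over the same time, by 1.20 to 3.54, and Syce2 was called lower. The rise of Hormad1 in XX depended on the probe set, and the Syce2 call was lost on leaving out single arrays, as described below. Of all genes tested, 6.64% were called higher at TS34 than at TS13 in XX germ cells and 3.33% in XY germ cells, and 4.81% were called lower in XY. The median member difference was 2.21 in XX and 1.20 in XY, beside medians over all genes of -0.14 and -0.041. Tex12, Sycp1 and Sycp2 rose the most in XX, and Sycp2, Sycp1 and Tex12 in XY. These are RNA amounts of sorted pools, in which fewer expressing cells and less RNA per cell cannot be told apart.

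The members called are given for the earlier and the later step, and the 2 steps were not tested against each other. Between TS13 and TS24, 3 members were called higher in XX germ cells (Sycp1, Sycp2 and Tex11), against 0.979% of all genes. The same step in XY germ cells called 4 (Sycp2, Tex11, Sycp1 and Sycp3), against 0.837% of all genes. Between TS24 and TS34, 6 were called in XX (Tex12, Sycp2, Sycp1, Tex11, Syce1 and Hormad2), against 1.86% of all genes. In XY the later step called 2, Sycp2 and Sycp1, against 0.985% of all genes. At an unadjusted p under 0.05 (limma) the earlier step had 7 members in XX, among 2096 genes, and 6 in XY, among 1781. The later step had 7 in XX, among 4035 genes, and 3 in XY, among 2180, with Syce2 lower in XY. In XX, Sycp1, Sycp2, Tex11, Tex12, Hormad1 and Hormad2 were among the 7 of both steps. The comparisons of neighbouring stages share the TS24 arrays, and the XX steps rest on 2 of them. Over all genes the median difference between TS34 and TS24 in XX was -0.153.

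**Figure D1:**
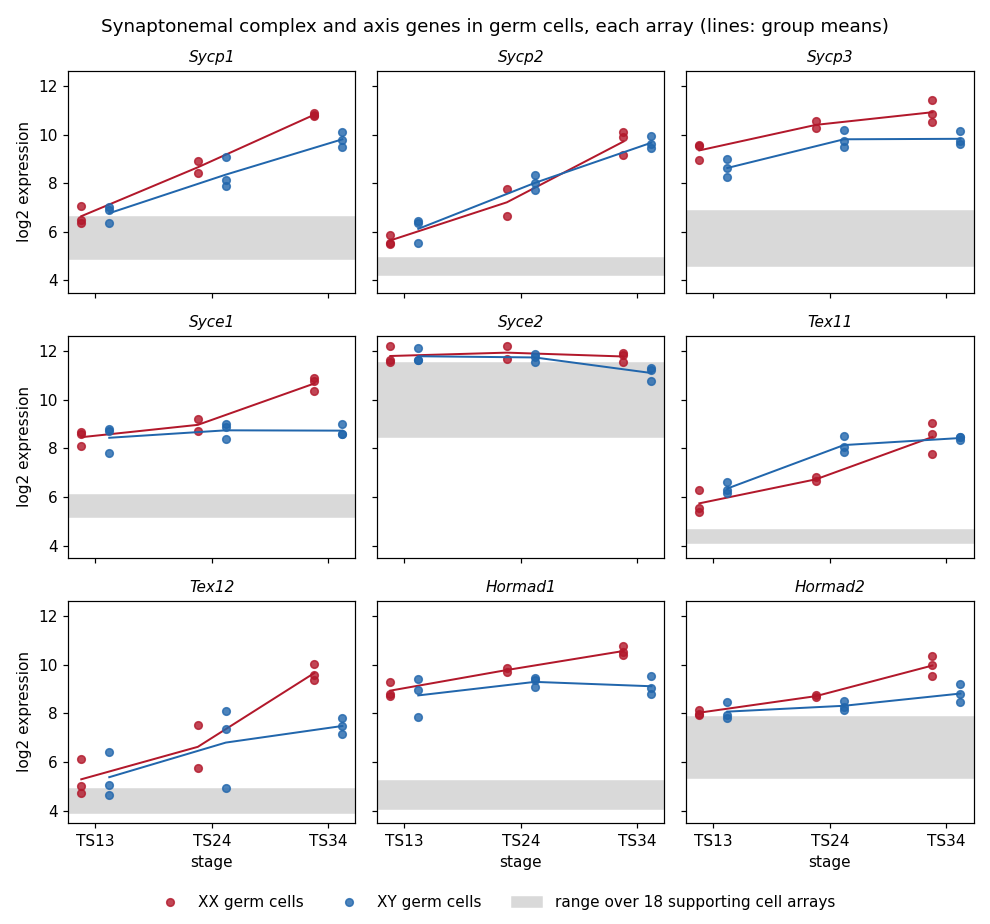
Log2 expression (y axis) of the 9 measured members on each germ cell array at TS13, TS24 and TS34 (x axis), with 1 panel per gene, XX arrays in red, XY arrays in blue, lines through the group means, and a grey band for the range over the 18 supporting cell arrays. Sycp1 and Sycp2 climb at each step in both sexes, Syce1 climbs in XX and has group means of 8.43 to 8.74 in XY, and Syce2 has group means of 11.78 to 11.93 in XX.

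Between the sexes, nearly all calls were made at TS34. At TS13, 0 of 9 members were called in XX minus XY germ cells by limma, where 0.0285% of all genes were called in either direction. At an unadjusted p under 0.05 there were 2 members, Sycp3 (higher in XX) and Tex11 (lower in XX), among 554 genes. At TS24 1 member was called, Tex11, which was lower in XX, and none was called higher. Of all genes 0.495% were called lower and 1.46% higher at that stage, and 2 members, Tex11 and Sycp2, both lower in XX, were among 2629 genes with an unadjusted p under 0.05. At TS34, 7 of 9 were called higher in XX and none lower, against 4.46% of all genes called higher. The median member difference at TS34 was 1.09, beside -0.063 over all genes, and the members not called were Sycp2 and Tex11. Over the 12 supporting cell markers the mean was 6.75, 6.52 and 6.33 on the XX arrays at TS34 and 6.58, 6.98 and 7.07 on the XY arrays. Over the 10 germ cell markers it was 10.07, 9.92 and 9.63 in XX and 9.77, 10.43 and 10.37 in XY, and the part of these shifts in the member differences was not tested.

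The fit was repeated with the library of somatic profile kept. With all 36 arrays, 2 members stayed called at TS34 in XX minus XY, Syce1 and Tex12, and Sycp1, Sycp3, Syce2, Hormad1 and Hormad2 lost the call with the same differences. At TS24 that fit called Tex11 and Sycp2 lower in XX. Without XX TS34 replicate 1 the count at TS34 was 4, and it was 4 to 7 over all fits that left out 1 array of the groups compared.

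**Figure D2:**
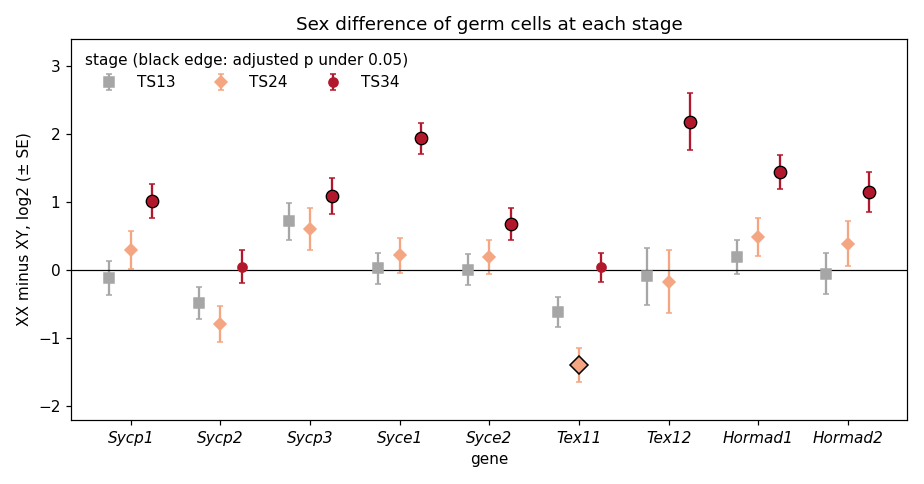
XX minus XY difference (log2, points with ± 1 SE) in germ cells for each measured member at TS13, TS24 and TS34, with a black edge on points called at an adjusted p under 0.05. Tex11 lies at -1.40 at TS24, while 7 of the 9 members are called above 0 at TS34.

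The promoters of the members were searched because most of them rose together in XX germ cells. RefSeq windows of the build GRCm38.p6 were available for 9 of the 10 members, in 12 windows, and the 250 bases before each start were read on both strands. Motifs were the E-box CACGTG (a palindrome, counted once), the sequence TTCCCGC bound by E2F6-type factors, and CNCCTCAG, the core of the element bound by the meiotic factor STRA8. CACGTG was present before the starts of 5 members, Sycp1, Sycp3, Syce2, Tex12 and Hormad1, and in 6.02% of all 32851 promoter windows. TTCCCGC was present in 4 (Sycp3, Syce2, Tex12 and Hormad1) and in 3.82% of all windows. CNCCTCAG was present in 2, Syce2 and Hormad2, and in 6.42% of all windows, and in Syce2 it overlaps the TTCCCGC match. Several windows can belong to 1 gene, and a match is only a run of letters. Counted by windows like the shares, the 3 motifs were in 6, 5 and 2 of the 12 member windows. Both windows of Hormad1 cover nearly the same bases, so its CACGTG and TTCCCGC sites are counted in each. The member windows with CACGTG or TTCCCGC held 12 to 24 CpG (C followed by G), beside a median of 6 over all promoters. Both motifs contain CpG, so the shares are not from windows of like CpG content, and the part of CpG content was not tested. The 160 bases before the start are shown for 4 members that rose in XX and hold CACGTG, with capitals for matches of CACGTG and of TTCCCGC (read on the opposite strand as GCGGGAA). They lie at chr3:102936101-102936260 on the minus strand for Sycp1, chr10:88459427-88459586 on the plus strand for Sycp3, chr9:50561269-50561428 on the minus strand for Tex12, and chr3:95559517-95559676 on the plus strand for Hormad1.
Sycp1: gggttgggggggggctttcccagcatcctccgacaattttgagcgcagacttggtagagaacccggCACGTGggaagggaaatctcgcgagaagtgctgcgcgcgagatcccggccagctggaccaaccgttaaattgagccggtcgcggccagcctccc
Sycp3: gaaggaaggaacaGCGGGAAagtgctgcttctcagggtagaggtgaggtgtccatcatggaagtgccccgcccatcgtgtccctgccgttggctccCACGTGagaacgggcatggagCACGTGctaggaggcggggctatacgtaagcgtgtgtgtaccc
Tex12: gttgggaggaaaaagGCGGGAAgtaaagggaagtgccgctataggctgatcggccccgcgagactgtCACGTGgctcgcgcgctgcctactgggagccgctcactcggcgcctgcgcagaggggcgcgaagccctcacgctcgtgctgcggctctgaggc
Hormad1: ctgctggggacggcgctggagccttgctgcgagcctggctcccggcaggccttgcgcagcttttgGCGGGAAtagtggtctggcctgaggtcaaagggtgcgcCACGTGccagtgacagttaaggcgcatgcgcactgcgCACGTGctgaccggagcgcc
Sycp3 and Hormad1 carry 2 copies of CACGTG, and Sycp1 has CACGTG without TTCCCGC in its window. Sycp2 and Syce1, which rose in XX as well, have none of the 3 motifs in theirs, and Hormad2, which also rose, has no CACGTG. Syce2 is not shown. It holds all 3 motifs in 1 of its 2 windows and none in the other, and it did not rise in XX (TS34 minus TS13 of -0.02).

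Among the axis genes, Sycp2 rose in both sexes and reached overlapping levels. Sycp2, the larger core protein of the axis, measured 5.56, 5.88 and 5.50 in XX at TS13, 7.77 and 6.66 at TS24, and 9.89, 9.14 and 10.11 at TS34. In XY germ cells the values were 6.44, 5.56 and 6.37 at TS13, 7.71, 8.34 and 7.99 at TS24, and 9.45, 9.62 and 9.93 at TS34. In each sex every TS34 array lay above every TS24 array and every TS24 array above every TS13 array. TS34 exceeded TS13 by 4.07 ± 0.24 in XX (adjusted p = 2.00e-18, limma) and by 3.54 ± 0.24 in XY (adjusted p = 3.09e-16). The sexes overlapped at TS34, where XX minus XY was 0.05 ± 0.24 with a 95% interval of -0.43 to 0.53. At TS24 the lower of the XX arrays lay below all XY arrays, and the difference of -0.79 ± 0.27 was not called (adjusted p = 0.113). Leaving out 1 array moved it between -1.35 and -0.24, and without XX TS24 replicate 1 it was called (adjusted p = 0.0114). The TS24 over TS13 difference in XX of 1.57 was 1.02 and lost its call (adjusted p = 0.0988) without XX TS24 replicate 1.

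Sycp3, the partner of Sycp2 in the lateral element, was already far above supporting cells at TS13. Its values in XX were 9.57, 9.54 and 8.94 at TS13, 10.26 and 10.54 at TS24, and 11.41, 10.52 and 10.83 at TS34. The XY arrays had 8.98, 8.63 and 8.27 at TS13, 9.73, 9.50 and 10.19 at TS24, and 9.73, 9.61 and 10.14 at TS34. All XX arrays at TS34 exceeded all XY arrays, and TS24 and TS34 overlapped in both sexes. XX minus XY at TS34 was 1.09 ± 0.27 (adjusted p = 0.00420, limma), and 0.85 without XX TS34 replicate 1, where the adjusted p was 0.0537. The sex difference was 0.72 ± 0.27 at TS13, which was not called (adjusted p = 1.00), and its change of 0.37 ± 0.39 between TS13 and TS34 was not called (adjusted p = 0.713). The rise in XY lay between TS13 and TS24, at 1.18 ± 0.27 (adjusted p = 0.00995). That call was lost without XY TS13 replicate 3 (adjusted p = 0.126) and without XY TS24 replicate 3 (adjusted p = 0.118).

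Hormad1 and Hormad2 rose in XX between TS13 and TS34, and neither was called over that time in XY on the 35 arrays. Hormad1, which marks unsynapsed axes and is needed for normal break formation, had values of 8.71, 9.31 and 8.79 at TS13, 9.86 and 9.71 at TS24, and 10.42, 10.76 and 10.52 at TS34 in XX germ cells. Over the same stages the XY arrays measured 8.95, 7.85 and 9.42, then 9.09, 9.44 and 9.36, then 8.78, 9.53 and 9.04. The sexes overlapped at TS13 and were apart at TS24 and TS34. At TS34 XX exceeded XY by 1.45 ± 0.25 (adjusted p = 3.45e-05, limma). TS34 exceeded TS13 by 1.63 ± 0.25 in XX (adjusted p = 2.42e-06) and by 0.38 ± 0.25 in XY (adjusted p = 0.521).

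For Hormad1 the probe set matters. The gene lies on chromosome 3, yet all 20 probe sets with the nearest identifiers to the one used belong to genes of chromosome 6, while 19 of 20 neighbours of its second probe set belong to chromosome 3. The second probe set, chosen for this comparison after its neighbours were seen, had values of 8.88, 8.12 and 8.15 in XX and 6.59, 7.90 and 7.10 in XY at TS34. Its XX minus XY difference at TS34 was 1.19 (adjusted p = 0.00314), a call in the same direction. Its TS34 minus TS13 difference in XX was 0.63 (adjusted p = 0.128), so the rise over time in XX was called on 1 of the 2 probe sets.

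Hormad2, which works with Hormad1 in the surveillance of unsynapsed chromosomes, had values of 7.99, 8.16 and 7.94 at TS13, 8.74 and 8.68 at TS24, and 10.38, 9.52 and 10.01 at TS34 in XX germ cells. In XY germ cells they were 8.47, 7.80 and 7.95, then 8.15, 8.51 and 8.28, then 8.78, 8.48 and 9.19. Every XX array lay above every XY array at TS24 and at TS34. TS34 exceeded TS13 by 1.94 ± 0.30 in XX (adjusted p = 2.26e-06, limma). In XY the difference was 0.74 ± 0.30 (adjusted p = 0.134), which was called when the 17 germ cell arrays were fitted alone (adjusted p = 0.0392). The change of the sex difference from TS13 to TS34 was 1.20 ± 0.42 (adjusted p = 0.115), and it too was called with the germ cell arrays alone (adjusted p = 0.0242). The sex difference was 0.39 ± 0.33 at TS24 (adjusted p = 0.612, limma) and 1.15 ± 0.30 at TS34 (adjusted p = 0.00588). At TS34 it was not called without XX TS34 replicate 1 (adjusted p = 0.0525) or without XY TS34 replicate 2 (adjusted p = 0.0588). In XX the step from TS24 to TS34 was 1.26 ± 0.33 (adjusted p = 0.0114), and it was not called without XX TS24 replicate 1 (adjusted p = 0.0564) or replicate 2 (adjusted p = 0.0951).

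The transverse filament gene Sycp1 rose in both sexes and ended higher in XX. Its values in XX were 6.50, 7.06 and 6.37 at TS13, 8.90 and 8.41 at TS24, and 10.89, 10.76 and 10.81 at TS34. In XY they were 6.88, 6.38 and 7.04 at TS13, 7.88, 9.06 and 8.12 at TS24, and 9.79, 9.51 and 10.12 at TS34. No stage overlapped another within a sex, and the sexes were apart at TS34 alone. TS34 exceeded TS13 by 4.17 ± 0.25 in XX (adjusted p = 2.00e-18, limma) and by 3.04 ± 0.25 in XY (adjusted p = 2.07e-13). XX minus XY was 1.01 ± 0.25 at TS34 (adjusted p = 0.00333), and its change from TS13 of 1.13 ± 0.35 was not called (adjusted p = 0.0551). That change was called when the arrays were quantile normalized (1.18) or centred on their medians (1.15), and when the 17 germ cell arrays were fitted alone (1.13).

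Of the 9 members, the central element genes Tex12 and Syce1 had the largest sex differences at TS34. Syce1, which links the central element to the transverse filaments, had values of 8.59, 8.69 and 8.09 at TS13, 9.20 and 8.73 at TS24, and 10.78, 10.34 and 10.88 at TS34 in XX germ cells. Across the stages in XY it measured 8.81, 7.79 and 8.70, then 8.37, 8.98 and 8.87, then 8.57, 9.01 and 8.60. The sexes overlapped at TS13 and TS24, and at TS34 the lowest XX array exceeded the highest XY array by a wide margin. XX minus XY at TS34 was 1.94 ± 0.23 (adjusted p = 1.77e-08, limma). It had changed by 1.92 ± 0.33 from TS13 (adjusted p = 1.47e-04) and by 1.72 ± 0.35 from TS24 (adjusted p = 0.00400). The second change was not called without XX TS24 replicate 2 (adjusted p = 0.106), and the first was not called with all 36 arrays. TS34 minus TS13 in XY was 0.29 ± 0.23, with a 95% interval of -0.18 to 0.76.

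Tex12, a central element protein that assembles with Syce2, had the largest XX rise and the widest spread between replicates of the 9 members. Its values in XX were 5.02, 6.13 and 4.72 at TS13, 7.51 and 5.74 at TS24, and 9.36, 9.58 and 10.05 at TS34. The XY values by stage were 5.05, 4.65 and 6.43, then 4.92, 8.11 and 7.37, then 7.15, 7.49 and 7.81. At TS24 the arrays of each sex were scattered and overlapped, and at TS34 the sexes were apart. TS34 exceeded TS13 by 4.37 ± 0.42 in XX (adjusted p = 1.30e-11, limma) and by 2.11 ± 0.42 in XY (adjusted p = 2.65e-04). XX minus XY at TS34 was 2.18 ± 0.42 (adjusted p = 1.52e-04). The sex difference had changed by 2.26 ± 0.59 from TS13 (adjusted p = 0.0156) and by 2.35 ± 0.62 from TS24 (adjusted p = 0.0427). Both changes were lost on leaving out single arrays, the second with values of 1.47 to 3.29.

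Syce2, the core of the central element fibre, was the member that did not rise. Its values in XX were 12.21, 11.65 and 11.53 at TS13, 12.21 and 11.66 at TS24, and 11.84, 11.55 and 11.94 at TS34. By stage the XY arrays had 11.63, 11.62 and 12.11, then 11.57, 11.89 and 11.75, then 10.77, 11.21 and 11.31. The XY arrays at TS34 lay below all other germ cell arrays kept in the fit. TS34 minus TS13 was -0.02 ± 0.23 in XX (adjusted p = 0.947, limma) and -0.69 ± 0.23 in XY (adjusted p = 0.0452). XX minus XY at TS34 was 0.68 ± 0.23 (adjusted p = 0.0407). Each of these calls was lost without any 1 of 4 arrays, XY TS34 replicates 1 and 2 in both cases, with XY TS13 replicates 1 and 3 for the fall (adjusted p up to 0.301) and XX TS34 replicates 1 and 3 for the sex difference (adjusted p up to 0.184). Both were also lost with the 17 germ cell arrays alone (adjusted p of 0.0628 for the fall and 0.0595 for the sex difference) and with all 36 arrays (0.128 and 0.112), and the fall was lost with quantile normalization (-0.54, adjusted p = 0.105).

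Tex11, the recombination and synapsis gene on the X chromosome, was lower in XX than in XY at TS24 and at overlapping levels at TS34. Its values in XX were 5.39, 6.27 and 5.55 at TS13, 6.80 and 6.65 at TS24, and 9.03, 7.78 and 8.59 at TS34. In XY they were 6.62, 6.15 and 6.27 at TS13, 7.85, 8.50 and 8.05 at TS24, and 8.48, 8.46 and 8.33 at TS34. Both XX arrays at TS24 lay below all XY arrays of that stage, and at TS34 the XY arrays lay within the XX range. XX minus XY was -1.40 ± 0.25 at TS24 (adjusted p = 3.22e-04, limma) and 0.04 ± 0.22 at TS34, with a 95% interval of -0.41 to 0.49. The difference between those sex differences was 1.44 ± 0.34 (adjusted p = 0.0155). It was not called without XX TS24 replicate 2 (adjusted p = 0.132), XY TS24 replicate 2 (0.0797), XX TS34 replicate 1 (0.0517) or XX TS34 replicate 3 (0.0601). TS24 exceeded TS13 by 1.78 ± 0.22 in XY (adjusted p = 3.53e-07) and by 0.99 ± 0.25 in XX (adjusted p = 0.0259). The XX value lost its call without XX TS13 replicate 1 or 3 or without either XX TS24 array (adjusted p up to 0.162).

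Whether the sex difference changed between stages was tested directly. From TS13 to TS34 the XX minus XY difference became more positive for 3 of 9 members, Tex12, Syce1 and Hormad1, against 1.87% of all genes. From TS24 to TS34 it did so for 3, Tex12, Syce1 and Tex11, against 0.398% of all genes, and for Tex11 it was 0.04 at the later stage after -1.40 at the earlier one. Both counts share the TS34 arrays. With all 36 arrays the first count was 0 and the second 3, and with the germ cell arrays alone the first was 5. Leaving out 1 array at a time gave counts of 1 to 4 for the first, the lowest without XX TS13 replicate 1 or 3, XY TS13 replicate 3, XX TS34 replicate 3 or XY TS34 replicate 1, and of 0 to 3 for the second, the lowest without XX TS24 replicate 2. For Hormad1 the change of 1.26 ± 0.36 (adjusted p = 0.0311, limma) was 1.04 on its second probe set (adjusted p = 0.183) and was not called without any 1 of 8 arrays, with adjusted p up to 0.195.

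Genes that work beside the complex were read from 4 lists of 34 genes, of which 28 were measured. At TS34, XX exceeded XY for 9 of 13 tested synapsis and recombination partners, for 3 of 6 genes of telomere attachment, for 3 of 3 meiotic cohesins and for 3 of 4 genes of meiotic entry, with none called lower, where 4.46% of all genes were called higher. From TS13 to TS34 in XX the counts called higher were 12 of 13, 4 of 6, 3 of 3 and 4 of 4, against 6.64% of all genes. In XY they were 5 of 13 among the partners and 0 in the other 3 lists by limma, against 3.33% of all genes. At an unadjusted p under 0.05 the XY counts were 5 partners, 0 genes of telomere attachment, 1 cohesin and 1 gene of meiotic entry, among 3065 of all genes.

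Stra8 and Meioc had the largest XX rises among the measured companions. Stra8, the retinoic acid target that starts meiosis, was higher at TS34 than at TS13 by 5.06 ± 0.22 in XX (adjusted p = 5.99e-24, limma), and by 0.17 ± 0.22 in XY, which was not called (adjusted p = 0.822). Meioc, which keeps germ cells in meiotic prophase, differed by 4.76 ± 0.29 in XX and 0.27 ± 0.29 in XY. The cohesin Rec8, which holds sister chromatids on the axis, differed by 2.64 ± 0.23 in XX and 0.23 ± 0.23 in XY, and the XY values of Meioc and Rec8 were not called.

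Recombination partners fell on both sides. Meiob and Spata22, which act together on single-stranded DNA, rose in XX by 4.05 ± 0.27 and 3.83 ± 0.20, with XY differences of 0.08 and 0.14 that were not called. Terb1, which ties telomeres to the nuclear envelope, rose in XX by 3.33 ± 0.23 and differed by 0.01 in XY. In contrast the crossover genes Hfm1, Shoc1 and Msh4, the central element gene Six6os1 (4930447C04Rik in the annotation) and Hsf2bp rose in XY too. Hfm1 rose by 3.19 ± 0.25 in XX and 1.73 ± 0.25 in XY, and Six6os1 by 1.37 ± 0.22 in XX and 1.08 ± 0.22 in XY.

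**Figure D3:**
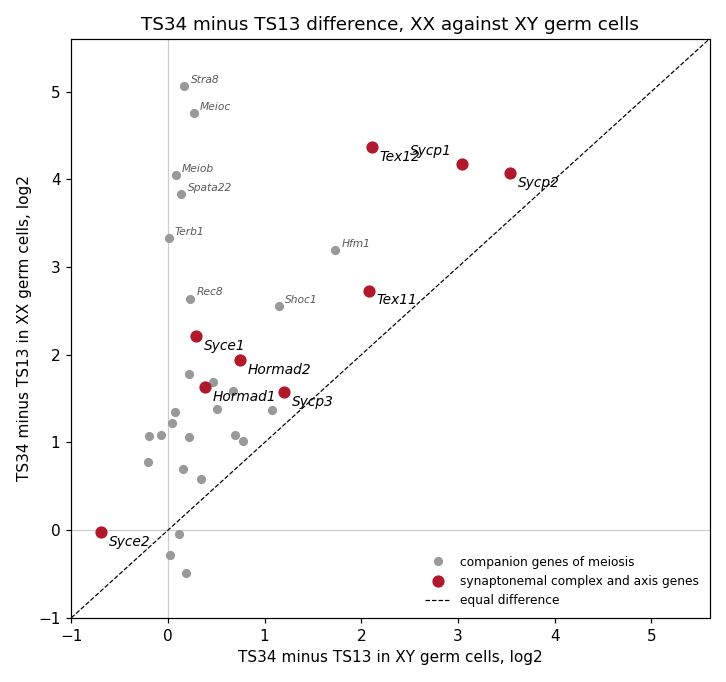
TS34 minus TS13 difference (log2) in XX germ cells (y axis) against that in XY germ cells (x axis) for the 9 measured members in red and their companion genes in grey, with a dashed line where both sexes differ equally. Sycp2, Sycp1, Tex12 and Tex11 lie far to the right, at 2.08 or more in XY, while Stra8, Meioc, Meiob and Spata22 lie at 0.27 or less in XY and at 3.83 or more in XX.

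The genes most like the members over the 17 germ cell arrays were found by the root mean square difference from the mean member profile, each gene centred on its own mean. They were Nf1 (0.277), Eml5 (0.292), Mllt3 (0.298), Slc25a31 (0.326), Ccdc150 (0.359) and Hfm1 (0.359), where the mean profile itself varied by 0.919. Nf1 encodes the Ras regulator neurofibromin, and Slc25a31 a germ cell carrier of adenine nucleotides. Nf1 had group means of 6.91, 7.61 and 9.09 in XX and 6.97, 7.70 and 8.58 in XY at TS13, TS24 and TS34. Its XX minus XY difference at TS34 was 0.51 ± 0.21 and was not called (adjusted p = 0.136, limma). Single members had other neighbours, such as Ccdc172 for Sycp1 (0.391), Sycp1 for both Sycp2 (0.499) and Tex12 (0.700), Slc30a4 for Syce1 (0.216), Mms22l for Syce2 (0.181), Tex13b for Sycp3 (0.334), Zmat1 for Tex11 (0.504), Cdh2 for Hormad1 (0.282) and Ccdc150 for Hormad2 (0.273). The member profiles themselves varied by 0.355 (Syce2) to 1.703 (Tex12), so these distances give no order of likeness. The likeness covers germ cells alone. Germ minus supporting cells at TS13 was -2.47 for Nf1 and -1.90 for Mllt3, both called lower, while every measured member was higher. Slc25a31, Ccdc150 and Hfm1 were called higher there, and Eml5 was not called. Of the single neighbours, Zmat1, Cdh2 and Slc30a4 were called lower, and Ccdc172, Tex13b and Mms22l higher. Of all genes 12.4% were called lower and 27.8% higher. The distances describe shared profiles across few stages, sexes and arrays and carry no test.

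Against supporting cells, every measured member was higher in germ cells at TS13 and at TS34, the stages tested. Averaged over the sexes at TS13, all 9 were called higher in germ cells, by 0.87 (Sycp1) to 4.69 (Hormad1), where 27.8% of all genes were called higher. At TS34 all 9 were called in XX, by 3.06 (Syce2) to 5.89 (Hormad1), against 17.2% of all genes. In XY all 9 were called as well, by 0.58 (Syce2) to 5.08 (Sycp2), against 16.8% of all genes. The second probe set of Hormad1 gave smaller differences, 2.41 at TS13, 3.15 in XX and 2.16 in XY at TS34, each of them called. On the XY supporting arrays at TS34, Tex12 lay above 1.7 to 4.5% of the probe sets of its array, Hormad1 above 6.5 to 7.2% and Sycp2 above 11.6 to 13.3%. Whether such low values exceed the background was not tested, so the sizes of these differences give no order of the members. The median of all genes in germ minus supporting cells was 0.112 at TS13 and 0.143 in XY at TS34. Sycp1 had 6.37 to 7.06 on the germ cell arrays of TS13 and 5.61 to 6.06 on the supporting arrays of that stage, without overlap, while the 18 supporting arrays of all stages reached 6.61. Sycp3 had 8.27 to 11.41 on the 17 germ cell arrays and 4.58 to 6.87 on the supporting arrays, without overlap at any stage.

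Syce2 was the member with high values in some supporting cells. On the 6 supporting arrays of the Sox9-cre/ERT2 line its lowest, median and highest values were 10.40, 10.60 and 11.50, against 8.46, 9.21 and 9.58 on the 12 of the Sry-EGFP line. The lines did not overlap, and the Sox9-cre/ERT2 values reached into the germ cell range of 10.77 to 12.21. Line, strain and stage cannot be told apart here for XY supporting cells, since both Sox9-cre/ERT2 groups are XY at TS24 and TS34. The Sry-EGFP groups at those stages are all XX. Line therefore cannot be told apart there from sex or from Sertoli against pregranulosa cells either. Over all stages together, the other 8 members had overlapping ranges in both lines. Within single stages some did not overlap between XX Sry-EGFP and XY Sox9-cre/ERT2 arrays. At TS34 these were Sycp1 (6.10 to 6.61 against 4.87 to 5.46) and Sycp3 (5.84 to 6.53 against 4.97 to 5.03). Tex12 at TS34 (4.44 to 4.89 against 3.91 to 4.15) and Hormad2 at TS24 (5.75 to 7.85 against 5.49 to 5.58) did not overlap either. The mean over the germ cell markers was 5.88 to 6.33 on the Sox9-cre/ERT2 arrays and 5.75 to 6.73 on the Sry-EGFP arrays. In XY at TS34, Syce2 had 10.77, 11.21 and 11.31 in germ cells and a mean of 10.52 ± 0.10 (SD, n = 3) in supporting cells. That difference of 0.58 ± 0.23 (adjusted p = 0.0473, limma) was not called with quantile normalization (0.42), with median centring (0.44), without the filter on low values, with all 36 arrays, or without XY germ replicate 2 or 3 or any 1 of the supporting arrays (adjusted p up to 0.196).

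**Figure D4:**
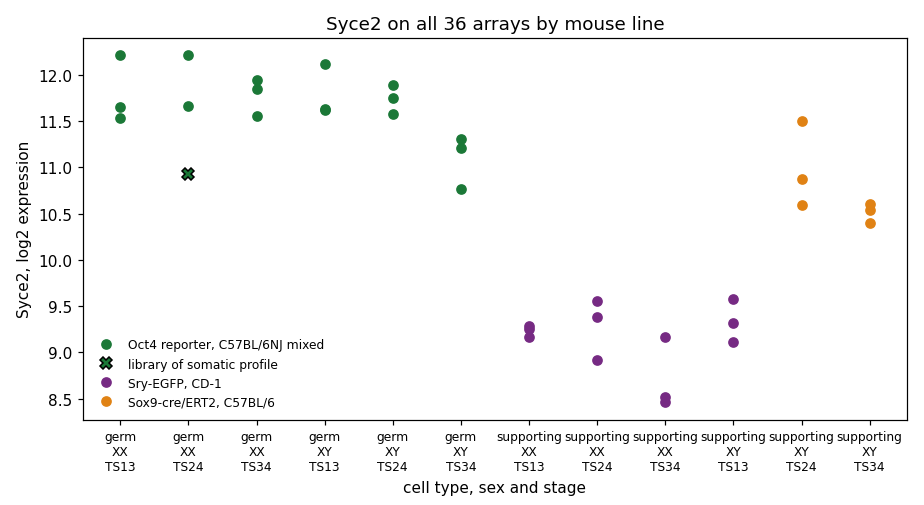
Log2 expression of Syce2 (y axis) on all 36 arrays by cell type, sex and stage (x axis), coloured by mouse line, with a cross for the library of somatic profile. The Sox9-cre/ERT2 arrays lie at 10.40 to 11.50 and the Sry-EGFP arrays at 8.46 to 9.58.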

How the data were processed

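RNA of sorted cells was hybridised to Affymetrix Mouse Gene ST arrays. The deposited values are log2 expression per probe set, summarised by RMA per the submitters' processing notes, and the sources used here do not give the version, the software or how probe sets were defined. Array medians ran from 6.412 to 6.841, and no further normalization was applied. Of 35557 probe sets 21789 had 1 symbol, and 21698 of those symbols were updated by Entrez identifier through RefSeq of GRCm38.p6. Genes above the 25th percentile on 3 or more arrays were tested, 17571 in all, among them all 9 measured members.

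Group means were fitted with limma 3.58.1 in R 4.3.3 on 35 arrays with no covariates, two-sided, with Benjamini-Hochberg adjustment over all genes tested. All adjusted p-values come from limma. The fit was tested on simulated data. Alternatives were all 36 arrays, the germ cell arrays alone, quantile normalization, median centring, no filter or the 50th percentile, the mean over probe sets, the replicate block, leaving out each array, and the second probe set of Hormad1, which was added after seeing the data. All 10 members are named by rule, and companion genes were taken from 4 lists. Members and lists were chosen with earlier results of these data known. The number of arrays limits the precision. Same-numbered arrays of different groups were compared by their deviations from the group means. Of 24 pairs 3 had a correlation above 0.1, over a range of -0.36 to 0.20. With so few arrays per group, this could not settle whether equal numbers pair the arrays. Interstitial and stromal samples were not analysed here.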

Additional observations from a re-analysis of the deposited data

Results flagged for a closer look

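The XX minus XY difference in germ cells was called as changed between stages in 6 cases, by a direct test of the change (limma). From TS13 to TS34 it moved towards XX by 1.92 for Syce1 (adjusted p = 1.47e-04), by 2.26 for Tex12 (adjusted p = 0.0156) and by 1.26 for Hormad1 (adjusted p = 0.0311), on the log2 scale. From TS24 to TS34 it moved towards XX by 1.72 for Syce1 (adjusted p = 0.00400), by 1.44 for Tex11 (adjusted p = 0.0155) and by 2.35 for Tex12 (adjusted p = 0.0427). The change for Tex11 starts from a difference of -1.40 at TS24, lower in XX, and ends at 0.04 at TS34. The Hormad1 change was not called on its second probe set, at 1.04 (adjusted p = 0.183). Leaving out 1 array at a time lost the Hormad1 call in 8 of 12 fits and the Tex12 call from TS13 in 5. From TS24, the Tex12 call was lost in 8 of 11 fits and the Tex11 call in 4. The Syce1 call from TS24 was lost in 1 fit, at 1.48 without XX TS24 replicate 2, which left 1 array there. The Syce1 call from TS13 was kept in every such fit. With the library of somatic profile kept, none of the changes from TS13 was called.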

How the results depend on the processing

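Of 126 member differences 70 were called, 48 of them under every alternative run, and none of the 70 changed sign. With the replicate block the members called in XX minus XY at TS34 were still 7 and no other call changed. Whether equal replicate numbers pair the samples was not settled. With all 36 arrays the members called were 2 in XX minus XY at TS24, 2 at TS34, 0 in TS24 minus TS13 in XX, 1 in TS34 minus TS24 in XY, and 0 for the change of the sex difference from TS13 to TS34. With the germ cell arrays alone they were 5 in TS24 minus TS13 in XX and 5 for that change. Leaving out 1 array gave 1 to 2 members in XX minus XY at TS24, 4 to 7 at TS34, 1 to 3 in TS24 minus TS13 in XX, 1 to 4 for the change from TS13 and 0 to 3 for that from TS24. The lowest count at TS34 came without XX TS34 replicate 1, that from TS13 without XX TS13 replicate 1 or 3, XY TS13 replicate 3, XX TS34 replicate 3 or XY TS34 replicate 1, and those for TS24 in XX without XX TS24 replicate 1 and for the change from TS24 without XX TS24 replicate 2.

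Some uncalled differences turned sign. With all 36 arrays the XX TS24 mean includes the library of somatic profile, and each sign change in that fit is in a difference from that group. XX minus XY at TS24 was then -0.55 for Sycp1, -0.90 for Sycp3, -0.99 for Syce1, -0.14 for Syce2, -1.39 for Hormad1 and -0.54 for Hormad2. TS24 minus TS13 in XX was then -0.45 for Sycp3, -0.71 for Syce1, -0.20 for Syce2, -1.03 for Hormad1 and -0.25 for Hormad2, and TS34 minus TS24 in XX 0.18 for Syce2. Quantile normalization gave Syce2 0.09 in TS34 minus TS24 and 0.19 in TS34 minus TS13 in XX, and Syce1 0.09 in TS34 minus TS24 in XY. Median centring gave 0.03 for Syce2 in TS34 minus TS13 in XX and 0.06 for Syce1 in TS34 minus TS24 in XY. For Hormad1 in XY, the mean over probe sets gave -0.01 in TS34 minus TS13, and the second probe set -0.40 there and -0.10 in TS24 minus TS13. Leaving out 1 array, XX minus XY at TS13 ran from -0.33 to 0.02 for Sycp1, -0.30 to 0.21 for Syce1, -0.20 to 0.17 for Syce2, -0.51 to 0.44 for Tex12, -0.25 to 0.54 for Hormad1 and -0.18 to 0.15 for Hormad2. At TS24 it ran from -0.01 to 0.46 for Syce1, -0.08 to 0.47 for Syce2 and -1.11 to 0.71 for Tex12, and at TS34 from -0.15 to 0.33 for Sycp2 and -0.24 to 0.38 for Tex11. For Syce2 in XX it ran from -0.14 to 0.41 in TS24 minus TS13, -0.43 to 0.12 in TS34 minus TS24 and -0.15 to 0.19 in TS34 minus TS13. In XY, TS24 minus TS13 ran from -0.01 to 0.50 for Syce1 and -0.14 to 0.11 for Syce2, TS34 minus TS24 from -0.14 to 0.21 for Sycp3, -0.20 to 0.11 for Syce1 and -0.25 to 1.34 for Tex12, and TS34 minus TS13 from -0.03 to 0.48 for Syce1 and -0.07 to 0.72 for Hormad1. Why signs turned in the settings other than all 36 arrays was not tested.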

Other observations

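The library labelled germ XX TS24 replicate 3 was left out of the fits on 35 arrays. It had 6.08 for Sycp1, 4.62 for Sycp2, 5.91 for Sycp3, 5.32 for Syce1, 10.93 for Syce2, 4.47 for Tex11, 4.17 for Tex12, 4.16 for Hormad1 and 5.92 for Hormad2 (log2). All 9 values lie within the range of the 18 supporting cell arrays for the same gene. The Syce2 value lies above the Sry-EGFP arrays, which reached 9.58, and within the Sox9-cre/ERT2 range of 10.40 to 11.50. Its mean over 6 markers of stromal and interstitial cells was 9.90, against 6.31 to 7.54 on the other 17 germ cell arrays, and its mean over 6 endothelial markers was 7.13, against 5.46 to 6.36. Both means also lay above the 18 supporting cell arrays, which had 6.95 to 7.71 and 5.70 to 6.24.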
